A study of Homo sapiens with 36 samples.

Results

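The genes described here are 9 members of the hemidesmosome and of the laminin-332 adhesion system: ITGA6, ITGB4, ITGA3, CD151, LAMA3, LAMB3, COL17A1, DST and PLEC. They were taken by name, with no threshold on a measured value but with earlier results of these data known, from the 60725 genes with a count in the deposited RNA-seq tables, and all 9 were found. Hemidesmosomes are the junctions that fasten the basal surface of epithelial cells to the basement membrane. On the outside, the integrin α6β4 and the transmembrane collagen XVII bind laminin-332, a matrix protein whose chains include α3 and β3. On the inside, the plakin proteins dystonin and plectin tie the junction to keratin filaments, and the integrin α3β1 and the tetraspanin CD151 also take part in adhesion to laminin-332. In the breast, some of these genes are known for marking the basal, myoepithelial layer, and the junctions are taken apart and rebuilt as epithelial cells spread and migrate.

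RNA was measured in 36 libraries, 18 groups of 2, from established breast cell lines treated with siRNA. MCF-10A-ER-Src cells are non-tumorigenic human mammary epithelial cells that carry the oncoprotein v-Src joined to the part of the estrogen receptor that binds ligand. Tamoxifen turns the fusion on, and all of the ER-Src libraries share it. In 20 libraries these cells were given a control siRNA (Ctrli) or siRNA against YAP1 (YAPi), WWTR1, the gene for TAZ (TAZi), STAT3 (STAT3i) or JUNB (JUNBi), each with ethanol (ETH, non-transformed per the labels) or tamoxifen (TAM, transformed per the labels). MDA-MB-231 is a triple-negative breast cancer line of mesenchymal character. Its first set of libraries holds Ctrli, YAPi, TAZi, YAPi and TAZi together, and siRNA against TEAD factors (TEADi), and its second set holds Ctrli, JUNBi and STAT3i. The siRNA were pools of several sequences per target. The protocol attached to every sample names tamoxifen at 0.4 to 1 µM and AZD0530, an inhibitor of Src family kinases, at 2 to 4 µM as the inducing agents. Per the methods of the study, ER-Src cells given siRNA were treated with both agents for 1 of 2 durations before assays, and which duration applied to the RNA libraries, and which of them received the inhibitor, is not given in the sources used here.

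Summed expected counts per library ran from 6419720 to 19161700 in ER-Src cells, from 13456784 to 13534560 in the 2 controls of the first MDA-MB-231 set, from 1411304 to 2784605 in its 8 knockdown libraries, and from 7290499 to 18076158 in the second set. Small RNAs that carry no poly(A) tail made up 9.43 to 11.7% of the counts in ER-Src cells and 8.71 to 11.8% in the first-set knockdowns, but 0.0028 to 0.0041% in the first-set controls and 0.0036 to 0.011% in the second set. In the first MDA-MB-231 set the knockdown and the kind of library therefore cannot be told apart. In ER-Src cells, the median gap between a gene's length and its effective length was 49.47 to 49.49 bases in the Ctrli, YAPi and TAZi libraries. It was 49 bases in each STAT3i and JUNBi library. The STAT3i and JUNBi libraries thus differed from their Ctrli in this trait too, and its part in those comparisons was not tested. In the first MDA-MB-231 set this gap was 75 bases in the controls. It was 48 bases in the knockdown libraries numbered 1 and 74.56 to 74.57 bases in those numbered 2. The 2 libraries of each first-set knockdown were thus unlike in this trait, and its part was not tested. All 6 basal or general epithelial markers checked (KRT5, KRT14, KRT17, TP63, CDH1 and EPCAM) reached 1 TPM in every ER-Src library. In MDA-MB-231 cells 1 of the 6 did so in every library. The summed TPM of these markers was 2026.6 to 4241.7 in ER-Src cells and 4.75 to 24.0 in MDA-MB-231 cells. Of 4 mesenchymal markers (VIM, ZEB1, CDH2 and FN1), 4 reached 1 TPM in every ER-Src library and 2 in every MDA-MB-231 library. Their summed TPM was 234 to 383 in ER-Src cells and 393 to 2881 in MDA-MB-231 cells. KRT5 was listed at 0 in both first-set controls and in the whole second set, and had 30 to 38 counts in the 4 first-set knockdown libraries numbered 1. No label says whether replicate libraries came from separate cultures, so every p-value below measures only the spread between these libraries, which may be technical.

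The promoters of the members that were called different in the most ER-Src comparisons are shown first, since the values below turn on these genes. RefSeq start-site windows on GRCh38.p14, each running from 250 bases before to 50 bases after an annotated start, were at hand for 5 of the 9 members (10 windows). None was at hand for ITGB4, ITGA3, CD151 and PLEC. For a gene with several windows the most downstream start is printed, and these data do not show which start was used. Capitals mark a match to TGANTCA, the motif of AP-1 dimers such as those with JUNB. GGAATG, bound by TEAD factors, and TTCNNNGAA, bound by STAT factors, were searched as well, all on both strands.
LAMA3 promoter, chr18:23872770-23873069, plus strand: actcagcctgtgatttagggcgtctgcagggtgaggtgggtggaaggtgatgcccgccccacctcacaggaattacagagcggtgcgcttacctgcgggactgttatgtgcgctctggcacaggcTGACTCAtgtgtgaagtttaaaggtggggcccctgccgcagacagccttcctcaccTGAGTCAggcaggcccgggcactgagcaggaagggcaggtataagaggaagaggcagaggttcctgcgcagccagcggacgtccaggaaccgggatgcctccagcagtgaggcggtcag
LAMB3 promoter, chr1:209651325-209651624, minus strand: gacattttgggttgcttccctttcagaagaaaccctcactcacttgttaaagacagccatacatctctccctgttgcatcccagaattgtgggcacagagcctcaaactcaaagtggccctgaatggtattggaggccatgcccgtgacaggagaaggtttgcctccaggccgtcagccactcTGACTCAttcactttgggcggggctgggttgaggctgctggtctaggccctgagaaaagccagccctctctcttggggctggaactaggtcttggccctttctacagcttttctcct
COL17A1 promoter, chr10:104085831-104086130, minus strand: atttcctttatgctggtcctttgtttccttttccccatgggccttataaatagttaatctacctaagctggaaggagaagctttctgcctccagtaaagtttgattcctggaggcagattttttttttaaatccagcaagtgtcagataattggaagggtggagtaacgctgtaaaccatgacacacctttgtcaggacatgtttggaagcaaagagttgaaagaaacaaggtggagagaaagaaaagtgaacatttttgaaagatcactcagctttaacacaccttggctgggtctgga
DST promoter, chr6:56642840-56643139, minus strand: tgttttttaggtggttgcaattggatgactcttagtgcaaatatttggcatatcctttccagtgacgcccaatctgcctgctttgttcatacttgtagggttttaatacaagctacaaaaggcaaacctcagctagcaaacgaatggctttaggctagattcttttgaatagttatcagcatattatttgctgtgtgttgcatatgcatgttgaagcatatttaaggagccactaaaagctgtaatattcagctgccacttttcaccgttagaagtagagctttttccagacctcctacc

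The AP-1 letters were found in 3 of the 10 windows, against 7.73% of all 34796 windows in the table. The LAMA3 window held 2 matches, with first bases 125 and 69 bases before the start (-125 and -69), and the printed LAMB3 window held 1 match at -67. A more upstream DST window held an AP-1 match at 25 bases past the start and a TEAD match at -249. The TEAD letters were in 1 of the 10 windows, against 14.0% of all windows, and the STAT letters in 0 of 10, against 7.67%. A match of this kind describes the letters only, and its absence says no more than that the letters are not in these windows.

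In ER-Src cells all 9 genes were expressed in every library. On the TPM scale, which divides by transcript length and so allows genes to be compared, the medians over the 20 libraries were 70.1 for CD151, 69.4 for DST, 67.3 for COL17A1, 59.3 for LAMB3 and 55.3 for ITGA3. These 5 genes were not separated from each other, since each of CD151, DST, COL17A1 and LAMB3 ranked first in at least 1 library. LAMA3 followed at a median of 39.9 TPM, ITGB4 at 32.8, ITGA6 at 26.5 and PLEC at 17.1. PLEC ranked 8 or 9 of 9 in every library. LAMA3 spanned 19.7 to 77.1 TPM and LAMB3 38.7 to 93.9 TPM.

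MDA-MB-231 cells expressed the same genes in other proportions. ITGA3 was the member whose TPM was lower in every ER-Src library (35.1 to 77.1) than in every MDA-MB-231 library (135.16 to 595.63). In the control and second-set libraries of MDA-MB-231, LAMB3 ranged from 156.45 to 363.02 TPM while LAMA3, the chain it assembles with, ranged from 3.13 to 31.8 TPM. COL17A1 was at 2.54 to 33.1 TPM over all MDA-MB-231 libraries, against 25.9 to 94.2 TPM in ER-Src cells. These levels compare libraries of different kinds, and no test was made between the lines. TPM also rests on the transcript length estimated in each library, which was shorter in the second set than in ER-Src cells for some members. It was 674 to 963 against 2598 to 3904 bases for COL17A1, which had 88 to 271 counts in the second set. For ITGA3 it was 1492 to 2176 against 2694 to 3303 bases, and for LAMA3 1028 to 1916 against 3566 to 4447 bases.

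Differences between groups are given as log2 fold changes from DESeq2, and a gene was called where its Benjamini-Hochberg adjusted p over all genes tested in that comparison was under 0.01. A normalized count is an expected count divided by the size factor of its library, set over all libraries of the same set. Since bulk RNA was measured, fewer cells expressing a gene and less RNA per cell cannot be told apart.

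Adding tamoxifen to Ctrli cells moved the members in opposite directions: ITGB4 and LAMB3 rose, and LAMA3 and DST fell. These were 4 of 9 members called, where 6.21% of all genes tested were called, and the members' median log2 fold change was 0.13, against -0.01 for all genes. Each YAP, TAZ, STAT3 or JUNB knockdown was then set against the Ctrli of its own treatment. In TAM, YAPi gave 3 members called, all higher (10.7% of all genes called), TAZi 3 members, 1 higher and 2 lower (3.42%), STAT3i 3 members, 2 higher and 1 lower (8.22%), and JUNBi 4 members, all lower (6.9%). In ETH, YAPi gave 5 members called, all higher (11.6% of all genes called), and TAZi 2 members, 1 higher and 1 lower (5.24%). Neither STAT3i (0.189%) nor JUNBi (2.8%) in ETH gave a call among the members.

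The sign of the members' median thus differed between knockdowns, and for TAZi also between treatments. The median log2 fold change over the 9 members was 0.54 for YAPi in ETH and 0.29 for YAPi in TAM, against -0.0028 and 0.0078 over all genes tested. It was -0.40 for JUNBi in TAM and -0.28 for JUNBi in ETH, against 0.02 over all genes in each. For TAZi it was 0.34 in ETH and -0.17 in TAM, and for STAT3i 0.09 in ETH and -0.11 in TAM, against -0.01 to 0.03 over all genes. The STAT3i medians fell from ETH to TAM, but the members' median STAT3i effect in TAM minus ETH was 0.09, in the other direction. Across these 9 comparisons, LAMA3 and DST were called 5 times each, LAMB3 and COL17A1 4 times, ITGA3 3 times, ITGB4 2 times and PLEC 1 time. ITGA6 and CD151 were called in none of them. The 4 comparisons within a treatment share the Ctrli libraries of that treatment, so their values are not independent of each other.

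**Figure D1:**
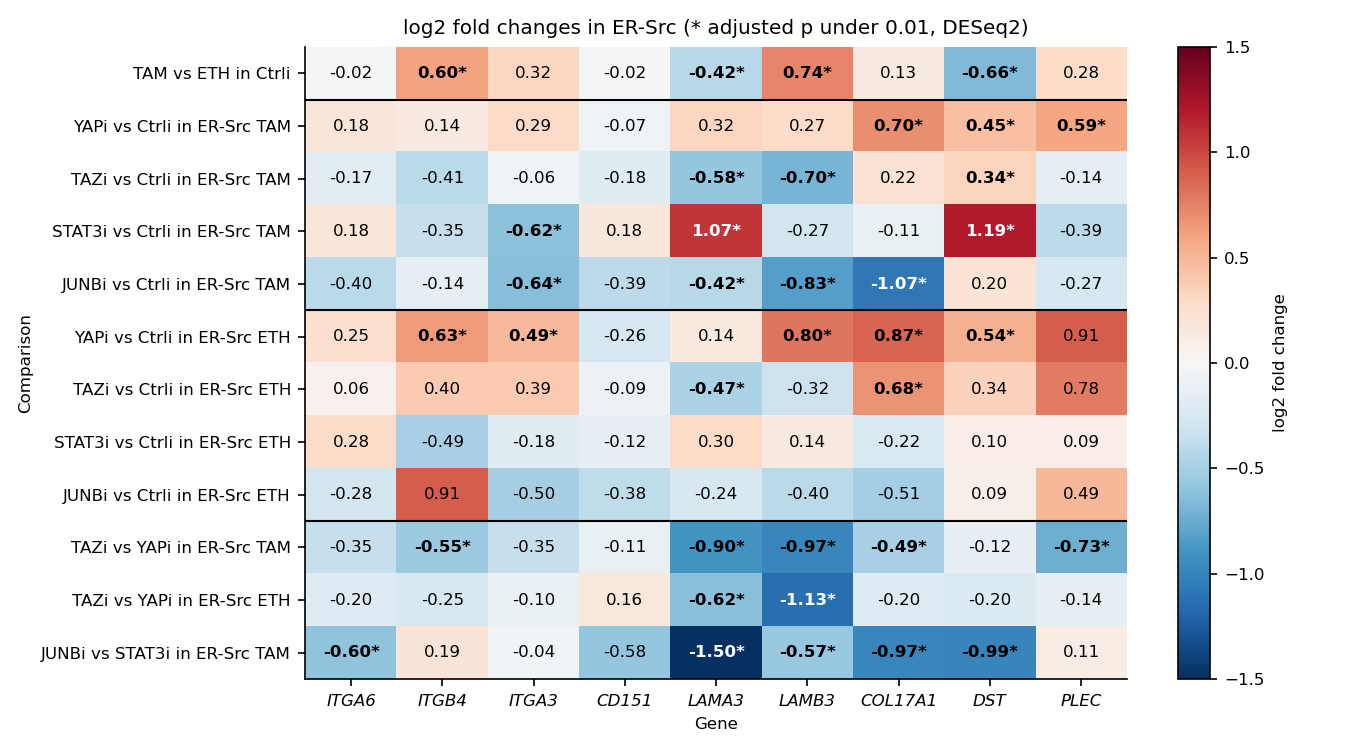
Log2 fold change (printed, and as colour with blue lower and red higher) of each of the 9 members (horizontal axis) in 12 ER-Src comparisons (vertical axis), the last 3 between knockdowns, with an asterisk where the DESeq2 adjusted p was under 0.01. JUNBi in TAM is lower for COL17A1 (-1.07) and LAMB3 (-0.83), and STAT3i in TAM is higher for DST (1.19) and LAMA3 (1.07).

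The laminin chains LAMA3 and LAMB3, the ligand of the junction, moved apart upon tamoxifen. LAMB3 encodes the β3 chain, a chain known from laminin-332 alone. Its normalized counts were 5678 and 5643 in the ETH Ctrli libraries and 9414 and 9306 in the TAM Ctrli libraries. The groups were far apart relative to their spread, and LAMB3 rose by 0.74 on the log2 scale (SE 0.09, DESeq2 adjusted p = 4.68e-16). LAMA3, which encodes the α3 chain, had 5192 and 4998 normalized counts in ETH Ctrli and 3777 and 3786 in TAM Ctrli. It fell by 0.42 (SE 0.09, DESeq2 adjusted p = 0.000226), but this call was lost when any single Ctrli library was left out, with adjusted p from 0.0525 without TAM Ctrli replicate 2 to 0.215 without ETH Ctrli replicate 1.

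STAT3 knockdown in TAM separated the same chains the other way. It also lowered JUNB (-2.41, DESeq2 adjusted p = 2.5e-47), and the part of JUNB in the STAT3i results was not tested. LAMA3 had 7924 and 7702 normalized counts in TAM STAT3i, 2.07 times the TAM Ctrli mean, and rose by 1.07 (SE 0.11, DESeq2 adjusted p = 1.45e-20). LAMB3 was at 6986 and 8282 in TAM STAT3i, 81.6% of its control mean, with a log2 fold change of -0.27 that was not called (adjusted p = 0.107). In TAM STAT3i LAMA3 was thus above its ETH control level and LAMB3 between its ETH and TAM control levels. Of the 20 ER-Src libraries, the 2 of TAM STAT3i held the highest LAMA3 counts.

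TAZ and JUNB knockdown in TAM lowered both chains. LAMB3 had 6222 and 5289 normalized counts in TAM TAZi (log2 fold change -0.70, SE 0.10, adjusted p = 2.44e-09, not called by edgeR at 0.0129) and 4671 and 5702 in TAM JUNBi (-0.83, SE 0.12, adjusted p = 9.54e-10). All 4 libraries lay below the lower of the TAM controls, at 61.5% and 55.4% of the control mean. LAMA3 had 2487 and 2559 normalized counts in TAM TAZi and fell by 0.58 (SE 0.10, adjusted p = 2.4e-07), a call lost without either TAZi library (adjusted p = 0.0249 without replicate 1 and 0.0227 without replicate 2). In TAM JUNBi LAMA3 was at 2779 and 2785 (-0.42, SE 0.11, adjusted p = 0.00417). This call was lost when any of the 4 libraries was left out, with adjusted p from 0.0766 without JUNBi replicate 2 to 0.304 without Ctrli replicate 1, and with edgeR (0.0284).

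With YAP knockdown neither chain was called lower. LAMB3 had 8796 and 11078.5 normalized counts in ETH YAPi, 1.76 times the ETH control mean, and rose by 0.80 (SE 0.12, DESeq2 adjusted p = 1.28e-09), whereas in TAM its log2 fold change of 0.27 was not called (adjusted p = 0.0375). LAMA3 was at 5361 and 5962 in ETH YAPi and at 4231 and 5123 in TAM YAPi, with log2 fold changes of 0.14 and 0.32 that were not called, whereas with transcript lengths as offsets both were called higher (0.53 in ETH and 0.50 in TAM). In ETH, TAZi lowered LAMA3 to 3677 and 3716 normalized counts (-0.47, SE 0.10, adjusted p = 0.000133), and this call was lost when any of the 4 libraries was left out (adjusted p from 0.0159 without TAZi replicate 1 to 0.245 without Ctrli replicate 1).

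**Figure D2:**
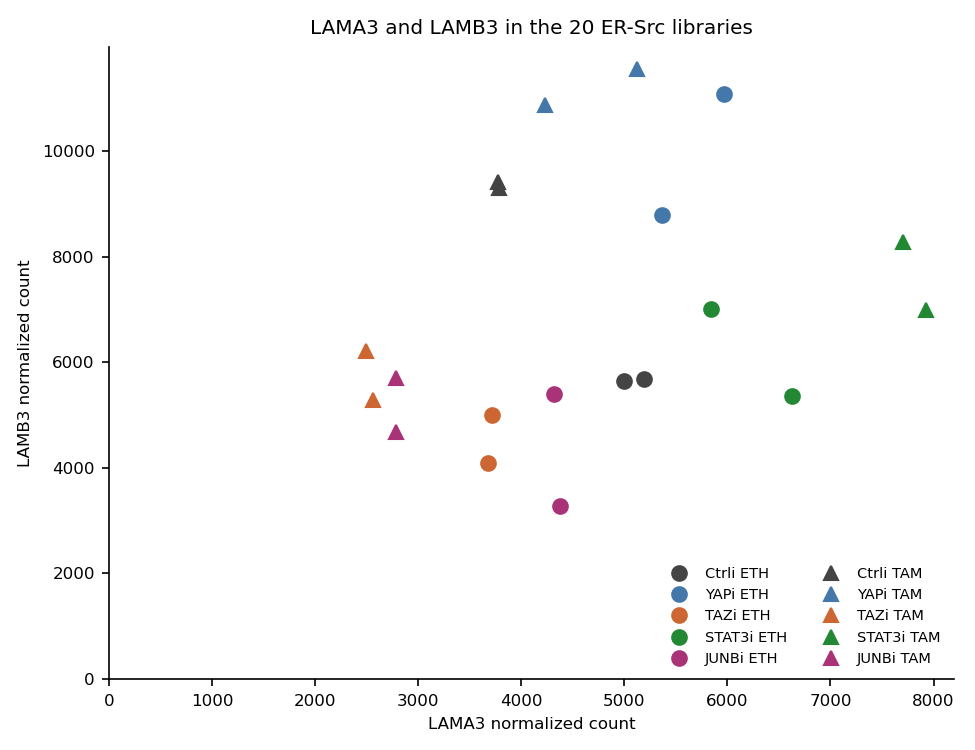
Normalized counts of LAMB3 (vertical axis) against LAMA3 (horizontal axis) in the 20 ER-Src libraries, with a colour for each siRNA, circles for ETH and triangles for TAM. The 2 TAM STAT3i libraries lie farthest to the right (7702 and 7924 for LAMA3), and the TAM TAZi and TAM JUNBi libraries lie at the left (2487 to 2785).

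Collagen XVII, encoded by COL17A1, spans the membrane and binds laminin-332. Tamoxifen left COL17A1 at 5753 and 5501 normalized counts, against 4911 and 5443 in ETH (log2 fold change 0.13, adjusted p = 0.645). YAPi raised it to 9205 and 9799 in ETH, 1.84 times the control mean (0.87, SE 0.11, DESeq2 adjusted p = 1.19e-14), and to 8169 and 9986 in TAM, 1.61 times the control mean (0.70, SE 0.12, adjusted p = 6.73e-07). All 4 YAPi libraries lay above all 4 control libraries, and both calls held without any single library. TAZi raised COL17A1 in ETH to 7779 and 8884 (0.68, SE 0.11, adjusted p = 4.55e-08), a call lost without ETH Ctrli replicate 1 (adjusted p = 0.0209) and with edgeR (0.0103). In TAM TAZi the counts of 6285 and 6779 gave 0.22 (adjusted p = 0.19).

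JUNB knockdown went the opposite way for COL17A1 and gave the largest fall of a member against its control in ER-Src cells. TAM JUNBi had 2499 and 2768 normalized counts, 46.8% of the TAM control mean, with a log2 fold change of -1.07 (SE 0.12, DESeq2 adjusted p = 1.1e-17, edgeR adjusted p = 0.000229). ETH JUNBi had 3209 and 4151 normalized counts, also below both controls, with -0.51 that was not called (adjusted p = 0.274). STAT3i left COL17A1 at 4982 and 5285 in TAM (-0.11, adjusted p = 0.589).

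Of the receptors, the integrin subunits α6 and β4, which form 1 receptor in the hemidesmosome, were not called in the same comparisons. ITGA6, the α6 subunit, ranged from 2135 to 4115 normalized counts over the 20 libraries and passed the test in none of the 9 comparisons. The group with the lowest ITGA6 mean was TAM JUNBi, at 2588 and 2135 against 3135 and 3197 in the TAM controls (-0.40, SE 0.13, adjusted p = 0.028). ITGB4, the β4 subunit with the long cytoplasmic tail that binds plectin, ranged from 1302 to 5220. It rose with tamoxifen from 1855 and 2323 to 3380 and 2896 normalized counts (0.60, SE 0.14, DESeq2 adjusted p = 0.000412), and with YAPi in ETH to 3085 and 3430 (0.63, SE 0.13, adjusted p = 4.35e-05). Both ITGB4 calls rest on the ETH controls, and neither held without ETH Ctrli replicate 1 (adjusted p = 0.261 and 0.151). The first was also lost without TAM Ctrli replicate 1 (0.205) and the second without ETH YAPi replicate 2 (0.0121).

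ITGA3, the α3 subunit of the laminin receptor α3β1, fell in TAM upon knockdown of STAT3 and of JUNB. Its normalized counts were 5250 and 5313 in TAM Ctrli, 3015 and 3775 in TAM STAT3i (-0.62, SE 0.13, DESeq2 adjusted p = 5.74e-05) and 3150 and 3505 in TAM JUNBi (-0.64, SE 0.12, adjusted p = 1.35e-06). Each knockdown library was below both controls. The STAT3i call was lost without TAM Ctrli replicate 1 (adjusted p = 0.0456), TAM Ctrli replicate 2 (0.049) or STAT3i replicate 1 (0.0518), and the JUNBi call without either TAM Ctrli library (0.0215 without replicate 1 and 0.0209 without replicate 2). YAPi in ETH raised ITGA3 to 5158 and 6854 from 3902 and 4618 (0.49, SE 0.14, adjusted p = 0.005), a call kept only without ETH YAPi replicate 1 among the 4 (0.446 without Ctrli replicate 1, 0.0571 without Ctrli replicate 2, 0.294 without YAPi replicate 2). CD151, a tetraspanin that binds α3β1 and α6β4, ranged from 1625 to 3429 normalized counts and was called in none of the 9 comparisons. Its largest log2 fold change was -0.39 in TAM JUNBi (adjusted p = 0.0748), where it was called without JUNBi replicate 2 (-0.62).

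Among the plakins, DST, which encodes dystonin including its epithelial form BPAG1e, had the largest rise of a member against its control in ER-Src cells. Tamoxifen lowered DST from 12485 and 13223 to 8239 and 7867 normalized counts (-0.66, SE 0.09, DESeq2 adjusted p = 2.95e-12). STAT3i in TAM brought it to 19156 and 16940, 2.24 times the TAM control mean (1.19, SE 0.11, adjusted p = 1.21e-23). The TAM STAT3i libraries thus lay above the ETH controls too, and both calls held without any single library. DST also rose with YAPi in ETH to 18840 and 18617 (0.54, SE 0.09, adjusted p = 5.87e-07), with YAPi in TAM to 9806 and 12116 (0.45, SE 0.12, adjusted p = 0.00325) and with TAZi in TAM to 10224 and 10109 (0.34, SE 0.08, adjusted p = 0.00265). These 3 rises were less firm. The first was lost without ETH Ctrli replicate 1 (0.0524) or replicate 2 (0.0159), the second without TAM Ctrli replicate 1 (0.0836), TAM Ctrli replicate 2 (0.17) or YAPi replicate 2 (0.321), and the last without any of its 4 libraries (0.0215 without Ctrli replicate 1 to 0.438 without TAZi replicate 2).

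PLEC encodes plectin, the plakin that links integrin β4 to keratin, and its replicate libraries lay far apart in several groups. TAM YAPi had 7104 and 9210 normalized counts against 5619 and 5299 in TAM Ctrli (0.59, SE 0.14, DESeq2 adjusted p = 0.000313). That call was lost without TAM Ctrli replicate 1 (0.0208), TAM Ctrli replicate 2 (0.0579) or YAPi replicate 2 (0.117). In ETH the YAPi libraries had 7095 and 10075 against 4038 and 5047 in Ctrli (0.91, SE 0.29, adjusted p = 0.0144), which was called without ETH Ctrli replicate 2 (1.07), YAPi replicate 1 (1.13) or YAPi replicate 2 (0.65). On all 4 libraries it was called by edgeR (0.90) and by DESeq2 with TMM factors (0.92) or length offsets (0.68). The groups did not overlap in either treatment. In TAM STAT3i PLEC was called lower without STAT3i replicate 2 (-0.75). In ETH TAZi it was called higher without TAZi replicate 1 (1.02), where ITGA3 (0.56) was called too, and on all 4 libraries with length offsets (0.56). Without ETH TAZi replicate 2, DST (0.47) was called in that comparison.

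**Figure D3:**
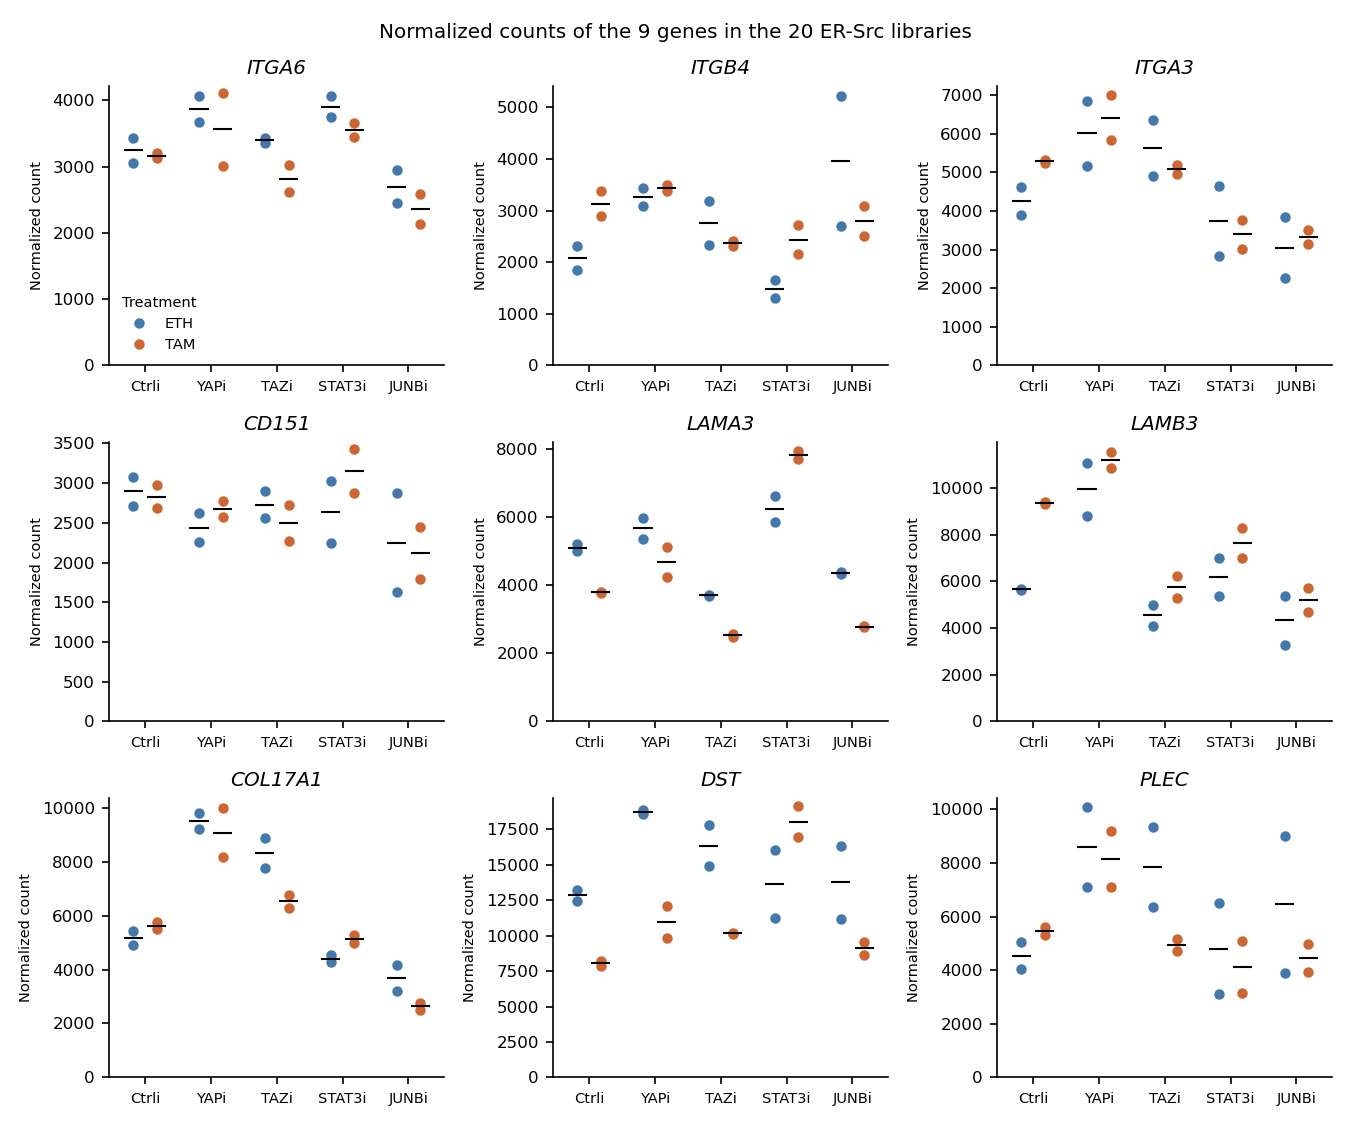
Normalized counts (vertical axis) of each member by siRNA in ER-Src cells, with 1 point per library, blue for ETH and orange for TAM, and a black line at the mean of the 2 libraries. LAMA3 stands highest in TAM STAT3i, COL17A1 is lowest in TAM JUNBi, and the 2 ETH JUNBi libraries of ITGB4 (2698 and 5220) and PLEC (3903 and 9013) are far apart.

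The absence of calls in ETH JUNBi came with unlike replicates. ITGB4 had 2698 normalized counts in replicate 1 and 5220 in replicate 2, and PLEC had 3903 and 9013. The level of JUNB itself was 3.90 and 8.55 TPM in these libraries, against 11.94 and 12.99 TPM in ETH Ctrli. Without replicate 1, ITGB4 (1.30) and PLEC (0.97) were called higher. Without replicate 2, ITGA3 (-0.91), CD151 (-0.84), LAMB3 (-0.79) and COL17A1 (-0.69) were called lower instead. The number of genes with a p was not counted, so gene counts at an unadjusted p under 0.05, here and below, give no share. Over all genes with a p, 2153 had an unadjusted p under 0.05 in this comparison, and 2 of the 9 members did. In ETH STAT3i the same was true of 613 genes and of 2 members, ITGB4 (-0.49) and LAMA3 (0.30), and leaving out STAT3i replicate 2 gave a call for ITGA3 (-0.57). edgeR called none of the 9 members in either comparison. Of all genes it called 1 of 14895 for JUNBi and 0 of 14520 for STAT3i. Its lack of member calls thus says nothing of the members alone.

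An interaction term tested, for each siRNA, the difference between its effects in the 2 treatments. For STAT3i 2 of 9 members were called (1.34% of all genes), with a larger effect in TAM for DST (difference 1.07, SE 0.22, DESeq2 adjusted p = 0.000173) and LAMA3 (0.75, SE 0.17, adjusted p = 0.00127). DST had a log2 fold change of 1.19 with STAT3i in TAM and 0.10 in ETH, and LAMA3 had 1.07 and 0.30. With transcript lengths as offsets the difference stayed called for DST (1.10, DESeq2 adjusted p = 0.000586) but not for LAMA3 (0.49, 0.324). Both were lost with edgeR (adjusted p = 0.0544 for DST and 0.0425 for LAMA3) and without ETH Ctrli replicate 2, TAM Ctrli replicate 2 or TAM STAT3i replicate 1, where the adjusted p ran from 0.0165 to 0.0223 for DST and from 0.0113 to 0.0197 for LAMA3. LAMA3 was lost also without ETH Ctrli replicate 1 (0.0301) or TAM Ctrli replicate 1 (0.0236). Leaving out ETH STAT3i replicate 1 added ITGA3 (-0.77) and LAMB3 (-0.61). The STAT3i interaction was also called for STAT3 itself (-0.80) and for JUNB (-2.19). With STAT3i, STAT3 had a log2 fold change of -2.66 in TAM and -1.88 in ETH, and JUNB had -2.41 and -0.24. The extent of the knockdown thus differed between the treatments, and its part in the DST and LAMA3 differences was not tested.

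For TAZi 1 member, ITGB4, was called (1.6% of the 4424 genes with an adjusted p). ITGB4 had a log2 fold change of -0.41 in TAM and 0.40 in ETH (difference -0.83, SE 0.20, DESeq2 adjusted p = 0.0042). With transcript lengths as offsets the ITGB4 difference was -0.50 and was not called (DESeq2 adjusted p = 0.29). It was lost with edgeR (0.144) and in 6 of the 8 fits that left out 1 library, with the highest adjusted p without ETH TAZi replicate 2 (0.423) and ETH Ctrli replicate 1 (0.398). Without ETH TAZi replicate 1, ITGA3 (-0.65), COL17A1 (-0.58) and PLEC (-1.20) were called as well, and without ETH Ctrli replicate 2, PLEC (-1.11). On all 8 libraries, TMM factors added PLEC (-0.91). For YAPi (0.498% of all genes) and JUNBi (0.288%) no member was called by DESeq2 or edgeR. Of all genes, edgeR called 15 of 15533 for YAPi and 0 of 15732 for JUNBi. At an unadjusted p under 0.05 were 835 and 903 genes, and 2 of the 9 members each. LAMB3 (-0.70) was called for YAPi without ETH YAPi replicate 1. ITGB4 (-1.47), LAMB3 (-0.77), COL17A1 (-0.76) and PLEC (-1.27) were called for JUNBi without ETH JUNBi replicate 1.

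The differences between knockdowns were also tested directly, in 3 comparisons chosen after the values were seen. TAZi against YAPi in TAM gave 5 of 9 members called, all lower with TAZi (6.13% of all genes): ITGB4 (-0.55), LAMA3 (-0.90), LAMB3 (-0.97), COL17A1 (-0.49) and PLEC (-0.73). The median over the members was -0.49, against -0.0020 over all genes. In ETH 2 were called (4.25%), again the laminin chains LAMA3 (-0.62) and LAMB3 (-1.13). The LAMA3 and LAMB3 calls in TAM and the LAMB3 call in ETH held without any single library and with edgeR. In TAM, ITGB4 was lost without either TAZi library (adjusted p = 0.0302 and 0.065), COL17A1 without YAPi replicate 2 (0.139), TAZi replicate 1 (0.29) or TAZi replicate 2 (0.0654), and PLEC without TAZi replicate 2 (0.0177). Leaving out TAM YAPi replicate 1 added ITGA6 (-0.57) and ITGA3 (-0.49). In ETH, LAMA3 was lost without YAPi replicate 2 (0.0256) or either TAZi library (0.0316 and 0.0363).

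JUNBi against STAT3i in TAM gave 5 of 9 members called, all lower with JUNBi (5.79% of all genes). LAMA3 differed most (-1.501, SE 0.12, DESeq2 adjusted p = 5.23e-32), followed by DST (-0.99), COL17A1 (-0.97), ITGA6 (-0.60) and LAMB3 (-0.57). The median over the members was -0.58, against -0.01 over all genes. JUNB itself was low in both arms, at 16.35 and 18.86 TPM in TAM JUNBi and 14.44 and 14.88 TPM in TAM STAT3i, against 54.35 and 71.05 TPM in TAM Ctrli, so this comparison is not one of low against high JUNB. ITGA6 was lost without STAT3i replicate 1 (0.101), STAT3i replicate 2 (0.0213) or JUNBi replicate 2 (0.125), and LAMB3 without STAT3i replicate 2 (0.197) or JUNBi replicate 1 (0.228). LAMA3, COL17A1 and DST held without any single library and with edgeR.

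The deposited tables also give, for each gene and library, a length averaged over its transcripts by their estimated abundance. This weighted length moved with some of the results. In ETH Ctrli replicates 1 and 2 and in ETH STAT3i replicate 1 the median over 4548 well-counted protein-coding genes was 90.5 to 92.7% of the mean of the 20 ER-Src libraries, against 95.4 to 104.8% in the other 17. For ITGB4 it was 2316 to 2509 bases in those 3 libraries and 2707 to 3700 bases in the other 17. For PLEC it was 9080 to 9887 and 9678 to 13558 bases, and for ITGA6 3663 to 3816 and 4190 to 5222 bases. When lengths entered the fit as offsets, the rise of ITGB4 with tamoxifen was 0.29 (adjusted p = 0.362) and with YAPi in ETH 0.30 (0.197). The fall of LAMA3 with tamoxifen was then -0.28 (0.154), and TAZi in ETH gave LAMA3 -0.20 (0.372) and COL17A1 0.34 (0.0205). The part of transcript choice, RNA quality or library preparation in these lengths was not tested. LAMB3 and DST upon tamoxifen, COL17A1 and LAMB3 in TAM JUNBi, LAMA3 and DST in TAM STAT3i, LAMB3 and COL17A1 in ETH YAPi and COL17A1 in TAM YAPi stayed called with the offsets.

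**Figure D4:**
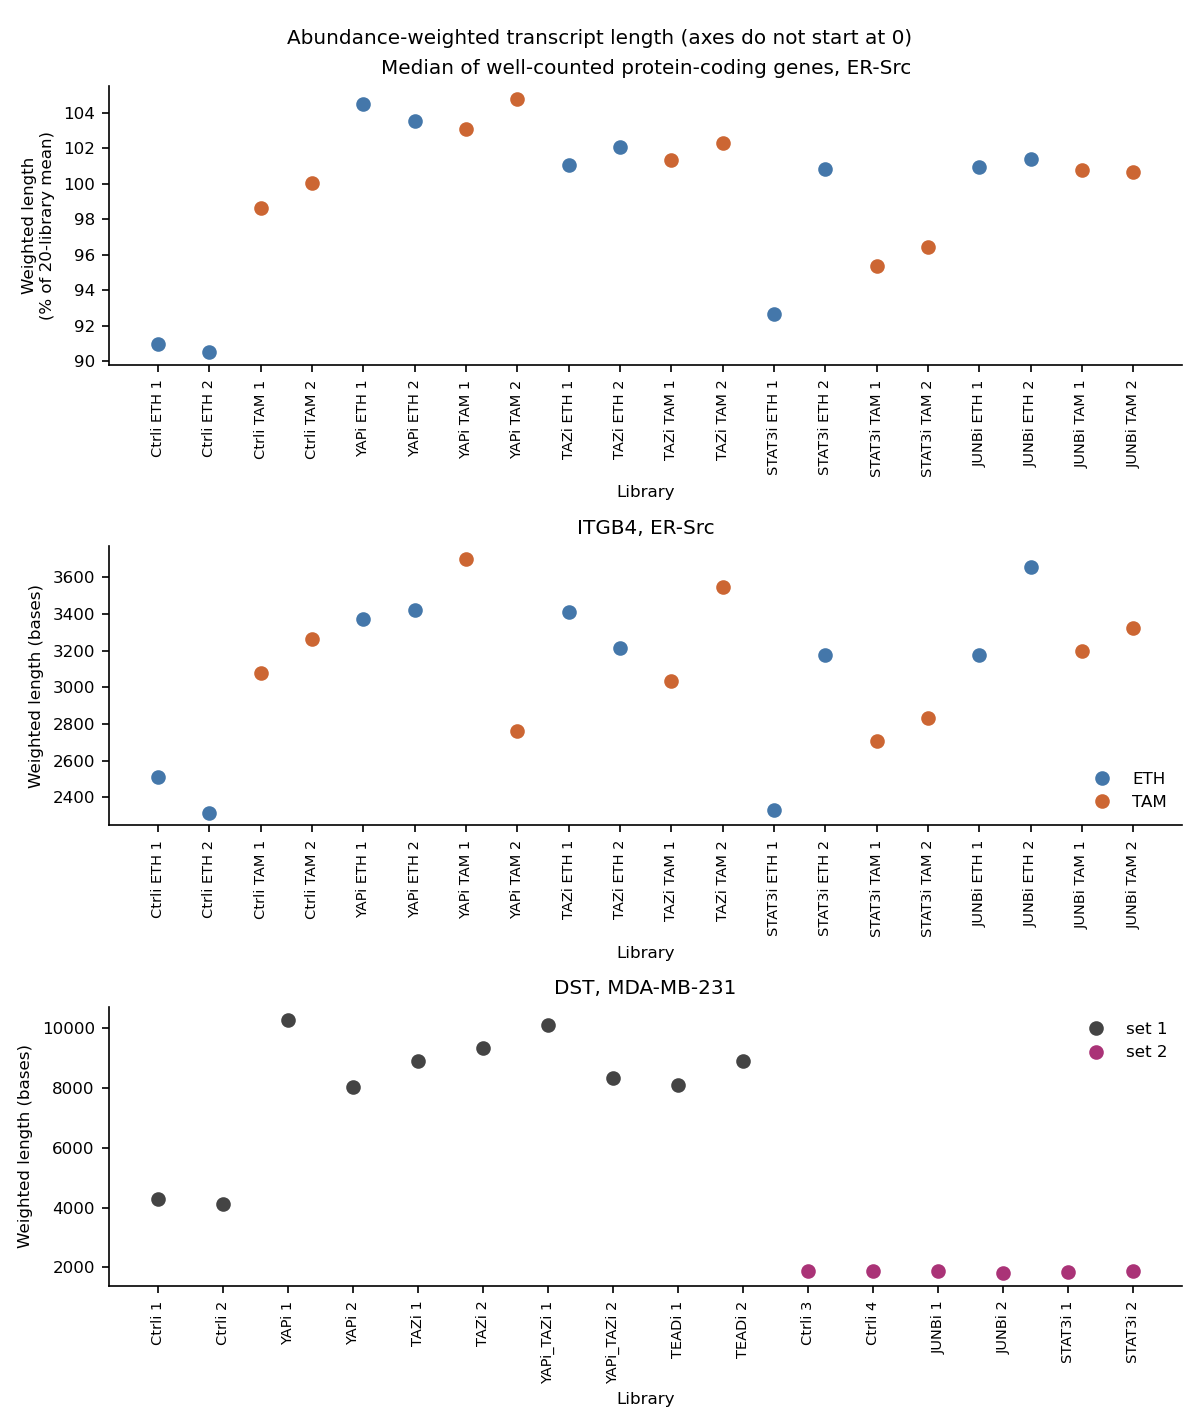
Abundance-weighted transcript length by library: the median over well-counted protein-coding genes as a percent of the 20-library mean in ER-Src cells, the length of ITGB4 in ER-Src cells, and the length of DST in MDA-MB-231 cells (bases), with 1 point per library and axes that do not start at 0. The ETH Ctrli libraries lie at 90.5 and 91.0%, and DST is at 4134 to 4293 bases in the first-set controls, 8024 to 10267 bases in the first-set knockdowns and 1811 to 1895 bases in the second set.

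In the first MDA-MB-231 set, ITGB4, LAMA3 and LAMB3 were lower, and DST higher, in every knockdown than in the controls. Of the 9 members, YAPi gave 4 called, 1 higher and 3 lower (24.4% of all genes), TAZi 7, 2 higher and 5 lower (32.8%), YAPi with TAZi 6, 2 higher and 4 lower (35.6%), and TEADi 7, 3 higher and 4 lower (27.5%). With so many genes called, the counts of members say little of the members alone. All 4 comparisons share the same 2 control libraries, which differ from the knockdowns in depth and in the share of RNA without poly(A) tails. The part of that difference in these results cannot be told apart from the knockdown. The 2 libraries of each knockdown also differed from each other in the gap between length and effective length.

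Within these limits, LAMB3 had 2191 and 2282 normalized counts in the controls, 1571 and 1273 with YAPi, 949 and 791 with TAZi, 789 and 732 with both siRNA, and 1477 and 1256 with TEADi. Its log2 fold changes were -0.67, -1.41, -1.60 and -0.75, each called without any single library. LAMA3 fell from 193 and 194 to between 51.5 and 109 normalized counts in the 8 knockdown libraries, with log2 fold changes of -1.76, -1.32, -0.97 and -1.63 in the same order. The LAMA3 calls for TAZi and for the combined knockdown were lost without either Ctrli library (adjusted p = 0.0193 without replicate 1 and 0.0195 without replicate 2 for TAZi, 0.102 and 0.105 for the combination). ITGB4 fell from 346 and 365 to between 86.4 and 216 normalized counts (-0.93, -1.90, -1.17 and -0.85). The YAPi and TEADi calls of ITGB4 were lost without Ctrli replicate 1 (0.0277 and 0.0348) or replicate 2 (0.0528 and 0.0626).

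DST rose from 1155 and 1070 to between 2133 and 3354 normalized counts (log2 fold changes 1.26, 1.44, 1.09 and 1.06). Its weighted length was 4134 and 4293 bases in the controls and 8024 to 10267 bases in the knockdowns, and with lengths as offsets the same differences were 0.04, 0.20, -0.18 and -0.12, none of them called. COL17A1 had 43.2 and 42.0 normalized counts in the controls and 77.1 to 105 in the knockdowns, and was called for TAZi (1.16), the combination (0.85) and TEADi (1.24). Each COL17A1 call was lost without either Ctrli library (adjusted p from 0.0953 to 0.416 over these 6 fits), and the combination also without its own replicate 1 (0.0953) or replicate 2 (0.11).

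The other members were called less often in this set. ITGA6 fell with the combined knockdown (-0.61), lost without Ctrli replicate 2 (0.0111). CD151 fell with TAZi (-0.65) and TEADi (-0.53), ITGA3 rose with TEADi (0.45), and PLEC fell with TAZi (-0.58). The CD151 call for TAZi was lost without Ctrli replicate 2 (0.0143), and the CD151 and ITGA3 calls for TEADi without Ctrli replicate 1 (0.0923 and 0.0783) or replicate 2 (0.126 and 0.0719). Leaving out YAPi replicate 1 added ITGA6 (0.27) and CD151 (-0.64), and leaving out YAPi replicate 2 added ITGA3 (0.26). Leaving out replicate 1 of the combination added CD151 (-0.66), and leaving out TEADi replicate 2 added ITGA6 (-0.48).

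In the second MDA-MB-231 set, JUNBi gave 1 call among the 8 members with an adjusted p (3.41% of the 7966 genes with one). STAT3i gave 0 among 6 (0.497% of 2013 genes). STAT3 itself, at -2.41 with STAT3i, got no adjusted p, so the lack of calls there does not show a lack of effect. PLEC fell with JUNBi from 19886 and 27330 to 13373 and 15729 normalized counts (-0.69, SE 0.19, DESeq2 adjusted p = 0.00893). This was lost without Ctrli replicate 4 (0.324), JUNBi replicate 1 (0.219) or JUNBi replicate 2 (0.181), and edgeR did not call it (0.174). PLEC was at 15202 and 15390 with STAT3i (-0.63, adjusted p = 0.0307) and was called there without Ctrli replicate 3 (-0.83). ITGA3 was at 6035 and 7040 with JUNBi against 9207 and 9505 in the controls (-0.51, adjusted p = 0.0311), and CD151 at 4661 and 4444 against 5958 and 7390 (-0.55, adjusted p = 0.029), the latter called without Ctrli replicate 3 (-0.68). For STAT3i 691 genes, among all those with a p, and 3 of the 9 members had an unadjusted p under 0.05, and edgeR called no member. Of all genes, edgeR called 0 of 13606 for JUNBi and 0 of 13510 for STAT3i. Its lack of member calls here thus says nothing of the members alone. LAMA3, the member of the lowest count here, had 64.9 to 90.4 normalized counts over the 6 libraries, and neither knockdown gave it an adjusted p.

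**Figure D5:**
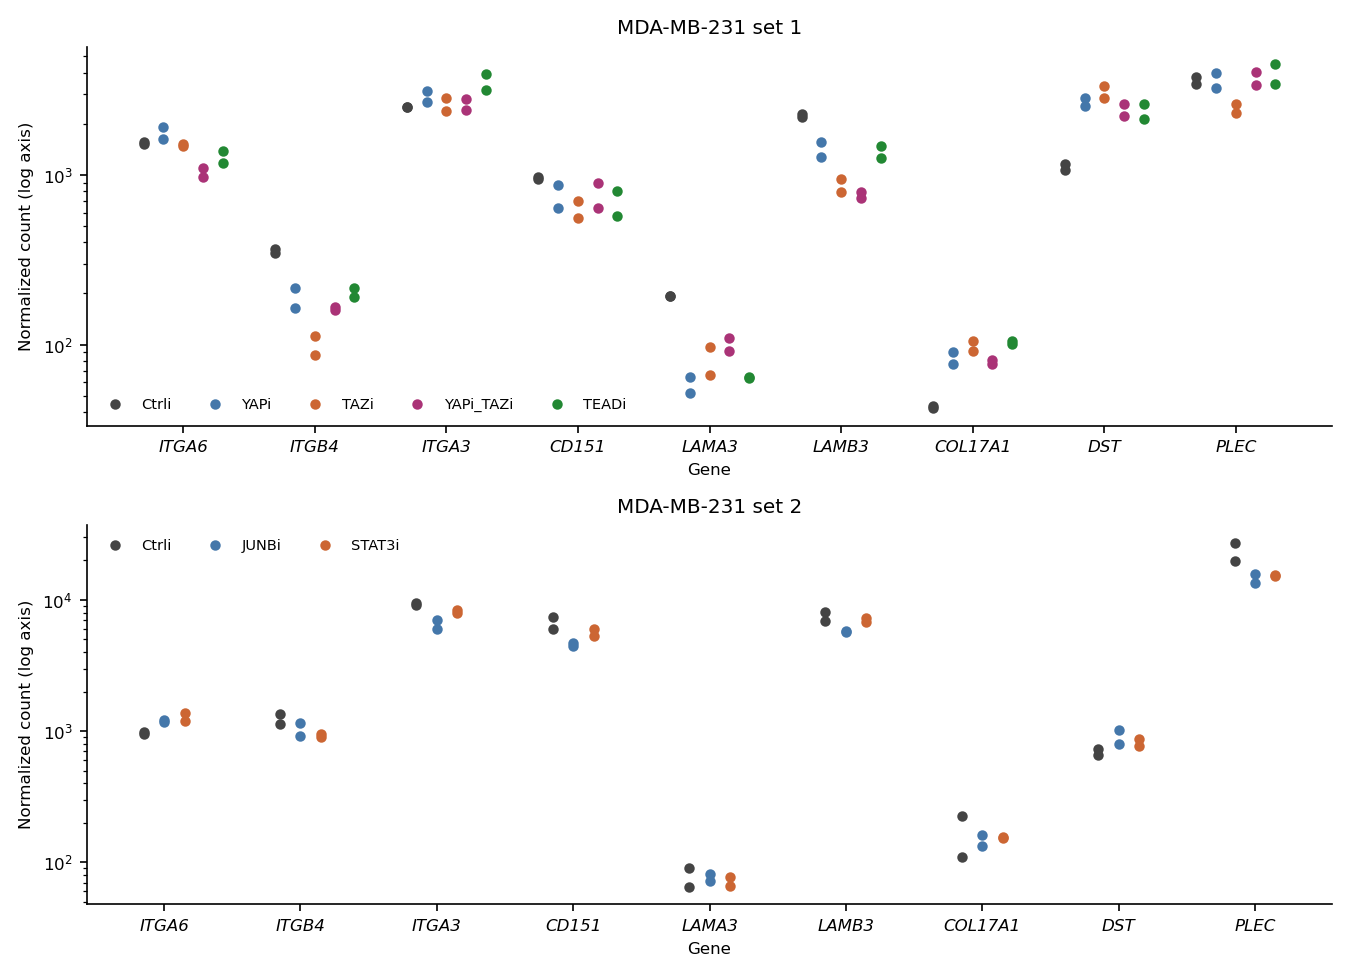
Normalized counts (log axis) of the 9 members in the MDA-MB-231 libraries, by siRNA and set, with 1 point per library. LAMB3 lies at 2191 and 2282 in the first-set controls and at 732 to 1571 in the first-set knockdowns, while in the second set its groups lie between 5651 and 8157.

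Of the other genes of the pathway, 3 lists were counted, and laminin chains outside the members are given by name. Over the 9 ER-Src comparisons the median log2 fold change ranged from -0.36 to 0.51 for matrix and its receptors, from -0.26 to 0.14 for partners and from -0.10 to 0.38 for proteases, against -0.01 to 0.03 for all genes tested. Among these laminin chains, LAMB1, which encodes the β1 chain, rose with tamoxifen (0.83) and fell in TAM with YAPi (-1.02) and STAT3i (-0.44) and in ETH with YAPi (-0.84). YAPi in TAM raised LAMA4 (2.34). In ETH, YAPi raised LAMC1 (0.40), TAZi raised LAMA5 (0.78) and JUNBi raised LAMB2 (1.05).

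Of the genes of basement membrane matrix and its receptors, tamoxifen raised BCAM (2.47), a receptor for laminin α5, and lowered COL4A6 (-0.75), among 12 tested (6.21% of all genes called). BCAM was lower with YAPi (-2.50) and STAT3i (-2.37) in TAM. YAPi in TAM called 0 of 12 higher and 3 lower (10.7% of all genes called), with FREM2 (-3.03) and FRAS1 (-0.98), which encode proteins of a basement membrane complex, beside BCAM. STAT3i in TAM called 1 of 11 higher, COL4A6 (0.63), and 4 lower, AGRN (-0.97) among them (8.22% of all genes called). JUNBi in TAM called COL4A2 (-0.67) lower, and TAZi in TAM called none of 12. In ETH, TAZi called 4 of 12 higher (5.24% of all genes called), led by COL7A1 (1.17), the gene of the anchoring fibril collagen, and AGRN (0.74).

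Among 8 partners of the members, the keratin gene KRT14, whose product forms the filaments that hemidesmosomes hold, was called in 7 of the 9 comparisons. It rose with tamoxifen (0.90) and with TAZi in ETH (1.54), and fell with YAPi in TAM (-1.55) and ETH (-1.06), with STAT3i in TAM (-1.08) and with JUNBi in TAM (-2.04) and ETH (-1.505). The integrin gene ITGA2 rose with tamoxifen (1.02) and fell in TAM with YAPi (-0.56) and JUNBi (-0.90), and ITGB1, whose product pairs with α3, rose in TAM with YAPi (0.40) and STAT3i (0.79). Of 5 proteases that process laminin-332 or shed collagen XVII, tamoxifen raised MMP14 (1.48) and BMP1 (0.64). MMP14 fell in TAM with STAT3i (-0.46) and JUNBi (-0.90). ADAM10 fell with YAPi in TAM (-0.53) and ETH (-0.52), and ADAM9 rose in TAM with YAPi (0.46) and STAT3i (0.70).

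Across the 20 ER-Src libraries the members did not vary as 1 block. The log2 normalized counts of LAMA3 and LAMB3 had a Pearson correlation of 0.32 (Spearman 0.36). ITGA3 went with COL17A1 (0.84, Spearman 0.87) and with PLEC (0.79, Spearman 0.82). The integrin partners ITGA6 and ITGB4 had -0.35 (Spearman -0.14). These values describe 20 libraries that share groups, scaling and library preparation.

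The genes whose pattern was most like that of 3 of the members were found among 9992 genes by the same Pearson correlation over the 20 libraries. They were GPRC5A (0.88), FOSL1 (0.88) and RHOC (0.88) for LAMB3, TGFBI (0.96), HECTD3 (0.93) and XPO6 (0.92) for COL17A1, and MMP24OS (0.92), MAPK8IP3 (0.88) and GPR108 (0.87) for ITGB4.

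On GRCh38 the members lie on separate chromosomes save for a pair on chromosome 17, ITGB4 (chr17:75721328-75757818) and ITGA3 (chr17:50055968-50090481), both on the plus strand. ITGA6 (chr2:172427354-172506459), CD151 (chr11:832887-839831) and LAMA3 (chr18:23689453-23956222) are on the plus strand. LAMB3 (chr1:209614870-209652425), COL17A1 (chr10:104031286-104085880), DST (chr6:56457987-56954830) and PLEC are on the minus strand. Genes on the other strand overlap ITGA6 (3 genes, ITGA6-AS1 among them), ITGB4 (GALK1), CD151 (POLR2L), LAMA3 (RPL23AP77) and DST (3 genes, DST-AS1 among them). The counting is not stated to use strand in the sources used here, so reads from these overlaps could have been counted for either gene.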

How the data were processed

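RNA-seq of 36 libraries in 18 groups of 2 was analysed from 1 gene table per library. Per the labels and the methods of the study, the authors aligned reads with STAR to hg38 with GENCODE v30 and quantified genes with RSEM. The deposited expected counts are RSEM estimates that need not be whole numbers and were rounded before testing. The TPM values deposited by the authors are scaled to a fixed total per library, and the lengths that the authors deposited beside them are averages over transcripts weighted by abundance. Symbols came from GENCODE v44 by identifier (93.1% matched). Identifiers that name no Ensembl gene (746, of which 649 are numeric and 96 are spike-ins) were left out. Of the per-library columns, 0 went unmatched to a sample.

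Each comparison was fitted over its own libraries with DESeq2 1.42.0 in R 4.3.3 on expected counts, with no covariate, and adjusted p-values cover all genes tested. An adjusted p that DESeq2 left empty was kept empty. Interactions used the 8 libraries concerned. Alternatives were edgeR 4.0.16 quasi-likelihood, TMM factors, a minimum mean count of 10, effective lengths as offsets, the replicate number as a block, and each library left out. For MDA-MB-231 the controls of both sets, and the other first-set knockdowns as reference, were also tried. The fits were tested on simulated counts. Same-numbered libraries deviated together in some comparisons and not in others (correlations of deviations from -0.05 to 0.51 in ER-Src cells), so the numbers were not taken to pair them.

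All 9 members were named. From each other list, genes were named only from the up to 3 called with the largest absolute log2 fold change per comparison. Not all of these were named. The siRNA targets served as checks of the labels. In each group given siRNA the targeted gene was lower than in its control. The members and lists were chosen with earlier results of these data known, and 3 comparisons between knockdowns were added after the values were seen. Promoters came from RefSeq on GRCh38.p14. Some genes of the pathway are not reported here.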

Additional observations from a re-analysis of the deposited data

Results flagged for a closer look

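A test of the knockdown effect between treatments set apart DST with STAT3i (difference between TAM and ETH of 1.07 on the log2 scale), LAMA3 with STAT3i (0.75) and ITGB4 with TAZi (-0.83). With STAT3i, STAT3 itself (-0.80) and JUNB (-2.19) were called in this test too. Of the member differences, only that of DST stayed called with lengths as offsets, and none did with edgeR.

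The effects in ER-Src and MDA-MB-231 cells had opposite signs, with every knockdown library on 1 side of both its controls in each line, for several members. These differences were not tested, since the sets were sequenced and scaled apart, and each is given as the ER-Src log2 fold change minus that in MDA-MB-231 cells. For YAPi they were 1.07 in TAM and 1.56 in ETH for ITGB4, 2.08 in TAM and 1.90 in ETH for LAMA3, and 0.94 in TAM and 1.48 in ETH for LAMB3. For TAZi in ETH they were 2.30 for ITGB4 and 1.36 for PLEC. For JUNBi, ITGA6 had -0.72 in TAM and -0.60 in ETH. Of the ER-Src fold changes behind these values, only those of ITGB4 and LAMB3 with YAPi in ETH were called. ITGA6 was called with JUNBi in neither line. With 2 libraries per group, separation from both controls was common, at 4 to 9 of the 9 members in each ER-Src comparison with Ctrli. The share of all genes so separated was not taken. The YAPi and TAZi values use the first MDA-MB-231 set, in which the knockdown and the kind of library cannot be told apart.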

How the results depend on the processing

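Of 636 repeats of the 64 called log2 fold changes under another setting, 443 kept direction and call, 181 kept direction and lost the call, and 12 reversed. Beside some counts of members called, the genes called out of all tested are given in parentheses. Members called under edgeR were 2 for TAM against ETH (1080 of 14447). In TAM they were 1 for YAPi (1344 of 14704) and 1 for TAZi (195 of 14656). In ETH they were 3 for YAPi (1660 of 14791) and 0 for TAZi (491 of 14554). They were 0 for the TAZi interaction (5 of 15350) and for the STAT3i interaction (56 of 15313). For JUNBi in the second MDA-MB-231 set they were 0 (0 of 13606). For TAZi against YAPi they were 2 in TAM (414 of 15249) and 1 in ETH (182 of 14482). For JUNBi against STAT3i they were 3 (847 of 15191). The edgeR adjusted p of calls lost was 0.0104 to 0.0138 for LAMA3 and ITGB4 (TAM against ETH), 0.0106 for ITGB4 and DST and 0.05 for ITGA3 (YAPi in ETH), 0.0417 for DST and 0.0255 for PLEC (YAPi in TAM), 0.0595 for DST (TAZi in TAM), 0.0204 for LAMA3 (TAZi in ETH), 0.0125 for ITGB4, 0.0383 for COL17A1 and 0.0195 for PLEC (TAZi against YAPi in TAM), 0.019 for LAMA3 (the same in ETH), 0.0254 for ITGA6 and 0.053 for LAMB3 (JUNBi against STAT3i), and 0.0122 for ITGA3 and 0.0319 for CD151 (TEADi). With length offsets members called were 2 for TAM against ETH (955 of 15724) and 1 for TAZi in ETH (933 of 13504). They were 0 for the TAZi interaction (120 of 9803) and 1 for the STAT3i interaction (191 of 14440). For YAPi with TAZi they were 3 (4098 of 17010) and for TEADi 4 (4035 of 16491). With these offsets DST reversed for YAPi with TAZi (-0.18) and TEADi (-0.12). TMM gave 2 members for the TAZi interaction (77 of 2407) and 0 for second-set JUNBi (249 of 7060). It shifted the median of all genes in the first set by -0.10 to -0.14 on the log2 scale. The replicate block gave 1 for JUNBi in ETH (ITGB4, 0.84), added PLEC for YAPi (0.90) and TAZi (0.76) in ETH, COL17A1 for the TAZi interaction (-0.49) and CD151 for JUNBi against STAT3i (-0.59), and kept 55 of 63 calls. The 8 calls lost (adjusted p) were DST for YAPi (0.0333) and TAZi (0.0544) in TAM, LAMA3 for JUNBi in TAM (0.0125), ITGB4 for the TAZi interaction (0.0109), PLEC for TAZi against YAPi in TAM (0.0627), and COL17A1 for first-set TAZi (0.0243), YAPi with TAZi (0.0274) and TEADi (0.0205). The labels do not say that a number pairs libraries, and for second-set comparisons no paired analysis was possible because the controls are numbered 3 and 4. With the controls of both sets, members called were 0 for YAPi (1222 of 15976) and 2 for TAZi (1183 of 16061). For YAPi with TAZi 1 was called (1651 of 16963), and ITGA6 reversed (0.17). For TEADi 0 were called (1502 of 15896), and for second-set JUNBi 0 (3 of 19442). Against the other first-set knockdowns with the replicate block, 0 members were called for YAPi (21 of 3391) and 1, PLEC, for TAZi (34 of 10610). For YAPi with TAZi 0 were called (108 of 9578), and for TEADi 0 (198 of 10608). With so few genes called, these counts say little of the members alone. Reversals were seen for YAPi (ITGB4 0.28, LAMB3 0.50) and TAZi (LAMA3 0.14). They were also seen for YAPi with TAZi (LAMA3 0.57, COL17A1 -0.26, DST -0.17) and TEADi (ITGB4 0.44, LAMB3 0.43, DST -0.21). TPM rescaled over protein-coding genes put 2 members above MDA-MB-231 in every ER-Src library, against 0 as deposited. With 1 library left out, members called ran from 2 to 3 for TAM against ETH, in TAM from 1 to 3 (YAPi), 1 to 2 (TAZi), 2 to 4 (STAT3i) and 2 to 4 (JUNBi), and in ETH from 2 to 6, 0 to 3, 0 to 1 and 0 to 4. They ran from 0 to 1 for the YAPi and 0 to 4 for each other interaction, from 3 to 6 (YAPi), 4 to 7 (TAZi), 3 to 6 (both) and 3 to 8 (TEADi) in the first set, from 0 to 2 (JUNBi) and 0 to 1 (STAT3i) in the second set, from 2 to 7 in TAM and 1 to 2 in ETH for TAZi against YAPi, and from 3 to 5 for JUNBi against STAT3i. Beside those in the report, calls gained on all libraries were ITGB4 for TAZi in TAM (-0.42, minimum mean count of 10), COL17A1 for first-set YAPi (0.99 with edgeR, 1.02 with that minimum), CD151 for YAPi with TAZi (-0.49) and ITGA6 for TEADi (-0.40) with TMM, and ITGA3 for second-set JUNBi (-0.78, length offsets). The cause of these changes was not tested. With 2 libraries per group and 1411304 to 2784605 counts in the first-set knockdowns, small differences in genes of low count such as LAMA3 and COL17A1 in MDA-MB-231 cells may have gone undetected.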
